A study of Mus musculus with 12 samples.

Results

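The Fos and Jun genes encode the subunits of the transcription factor AP-1, and their chromatin was described here through 42 ATAC-seq peaks out of the 48443 regions counted in mouse CD4+ T cells. A peak was taken as a member where its nearest protein-coding gene model within 100 kb was Fos, Fosb, Fosl1, Fosl2, Jun, Junb or Jund. Fos had 11 peaks, Jun 9, Fosl2 8, Fosb 7, Junb 3, and Fosl1 and Jund 2 each, so that 28 belonged to the Fos family and 14 to the Jun family. A region may control a gene other than its nearest one.

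ATAC-seq measures how open chromatin is by the reads that the Tn5 transposase leaves in each region. Naive CD4+CD44-CD62L+CD25- cells were sorted from spleens of wild-type (WT) C57BL/6 mice and stimulated in vitro through CD3 and CD28 with antibodies bound to the plate, each at 1 µg/ml. Th17n cells, the non-pathogenic form of the IL-17 producing helper lineage, were made with IL-6 at 25 ng/ml plus TGFb1 at 2 ng/ml. Induced regulatory T cells (iTreg) had the same TGFb1 and no IL-6. Each lineage was cultured for 68 h with 100 µM DFMO or with vehicle. DFMO, difluoromethylornithine, irreversibly inhibits ornithine decarboxylase, the enzyme that opens polyamine synthesis. The 4 groups were Th17n with DFMO, Th17n with vehicle, iTreg with DFMO and iTreg with vehicle, each with libraries of animals 1, 2 and 3. Cells were sorted as live, frozen and thawed before library preparation, and no in vivo cells were measured.

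Library totals ran from 1020937 to 6496550 counts, and between 1710 and 11182 counts per library fell in the 42 peaks. Values are CPM, the counts of a peak per 1000000 counts of its library, listed for animals 1, 2 and 3 in that order. The T cell genes Cd3e, Cd3g, Cd3d, Cd4, Cd5 and Cd28 all had peaks, while Cd8a, Cd79a, Cd79b, Ms4a1, Ncr1 and Klrd1 had none. The sum of the 6 T cell genes was 617 to 645 CPM in Th17n with DFMO, 666 to 729 in Th17n with vehicle, 459 to 485 in iTreg with DFMO and 501 to 579 in iTreg with vehicle. The 2 NK cell genes with a peak summed to 103 to 148 CPM in Th17n and 158 to 184 in iTreg libraries, and 6 myeloid genes to 81.7 to 119 CPM over all libraries. The summed CPM near 5 Th17 genes was 357 to 424 in Th17n with DFMO, 516 to 570 in Th17n with vehicle, 127 to 185 in iTreg with DFMO and 201 to 254 in iTreg with vehicle. That near 4 Treg genes, Foxp3 among them, was 897 to 948, 1020 to 1110, 747 to 922 and 937 to 1020 CPM in the same order of groups. Both lists were lower in each lineage with DFMO, and so was the sum of the 6 T cell genes. The part of these shifts in the values below was not tested.

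AP-1 is a dimer held together by leucine zippers. Fos proteins pair with Jun proteins, and Jun proteins also pair with each other and with BATF and ATF family members. T cell receptor and costimulatory signals reach AP-1 through MAP kinases, which induce Fos as an immediate early gene and phosphorylate Jun. In mouse Th17 cells Fosl2 (FRA-2) is known as a factor that limits plasticity, and Junb as a factor that the Th17 state needs. Jund is known for its broad, steady expression in many tissues.

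The start of a gene can itself hold AP-1 or related sites, since Jun is known to drive its own promoter. The 250 bases before the annotated start were read from RefSeq promoter windows of build GRCm38.p6, which held 6 of the 7 members, all but Fosl1. Those of Fosl2, Fos and Jun are shown because peaks described below span them: that of Fosl2, at whose start no change with DFMO passed while other Fosl2 peaks fell, and those of the genes that gave both families their names. Capitals mark matches to TGACG or TGACATCA on either strand.
Fosl2 promoter, chr5:32136222-32136471, plus strand: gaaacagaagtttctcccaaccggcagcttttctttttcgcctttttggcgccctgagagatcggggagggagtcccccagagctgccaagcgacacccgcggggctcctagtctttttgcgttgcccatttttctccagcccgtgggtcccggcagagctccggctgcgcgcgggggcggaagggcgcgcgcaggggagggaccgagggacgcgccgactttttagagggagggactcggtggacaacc
Fos promoter, chr12:85473640-85473889, plus strand: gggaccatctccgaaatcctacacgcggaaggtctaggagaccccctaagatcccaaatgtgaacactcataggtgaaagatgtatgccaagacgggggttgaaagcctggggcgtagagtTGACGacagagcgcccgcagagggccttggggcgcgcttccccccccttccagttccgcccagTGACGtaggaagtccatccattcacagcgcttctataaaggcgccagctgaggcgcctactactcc
Jun promoter, chr4:95052223-95052472, minus strand: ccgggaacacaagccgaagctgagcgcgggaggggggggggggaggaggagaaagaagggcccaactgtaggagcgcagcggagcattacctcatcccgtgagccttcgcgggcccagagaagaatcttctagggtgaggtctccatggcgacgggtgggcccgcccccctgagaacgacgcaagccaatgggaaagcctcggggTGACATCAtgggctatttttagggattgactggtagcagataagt
TGANTCA, the AP-1 element, and TGACGTCA, the cAMP response element, were in none of the 6 windows. They occurred in 6.75% and 1.55% of all 32851 promoter windows read the same way. The Jun window held TGACATCA, 45 bases before the start, a form found in 2.93% of all windows. TGACG, which is the first part of TGACGTCA, stood 129 and 66 bases before the start of Fos, and was in 17.8% of all windows. Junb and Fosb held it 106 and 60 bases before their starts. TGACATCA and TGACG were searched for after the sequences had been seen. A match in letters is not a bound site. All 250 bases of the Fosl2, Fos and Jun windows lay inside a peak, as did those of Fosb. For Junb 214 bases did, and the Jund window lay 620 bases from the nearest Jund peak.

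The peaks were 194 to 2977 bp wide (median 530.5). Of the 42, 11 lay at a gene end, meaning within 1 kb of either end of the gene model, 2 lay inside a gene model and 29 outside, the furthest 95.1 kb away. Peaks are numbered along the chromosome within each gene, and positions are in build mm10 as deposited. Of the 42, 41 had enough counts to be tested together with 43726 regions in all, and Fos peak 3 had not. A call is a Benjamini-Hochberg adjusted p under 0.05 over all 43726 regions in edgeR's quasi-likelihood test. Of the 41 peaks, 24 passed in at least 1 comparison, near the share of all regions that did (58.6%), and 17 passed in none.

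Per kb of peak, so that regions of unequal width can be compared, the peaks at the annotated starts, with the nearest peak for Jund and Fosl1, were ordered Jund, Fosl2, Jun, Junb, Fosb, Fos and Fosl1 by their mean over the 12 libraries. Jund peak 2 had 97.9 ± 4.39, 106 ± 11.9, 119 ± 16.9 and 133 ± 9.99 CPM per kb in Th17n with DFMO, Th17n with vehicle, iTreg with DFMO and iTreg with vehicle (SD, n = 3 each). Fosl1 peak 1, at the other end of the order, had 37.5 ± 9.11, 29.2 ± 2.14, 33.0 ± 3.04 and 37.5 ± 7.82 in the same groups. Over all libraries Jund ranged from 93.0 to 139.7, Fosl2 from 66.5 to 140.2, Jun from 77.3 to 111 and Junb from 72.0 to 96.3 CPM per kb. These 4 ranges overlapped, as did those of Fosb (30.2 to 71.6), Fos (40.1 to 65.7) and Fosl1 (27.7 to 45.9). The highest value of Fosb, Fos or Fosl1 was below the lowest of Jund, Jun or Junb and above the lowest of Fosl2.

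Fosl2 had the most called peaks of the 7 genes. Of its 8 peaks, all tested, 7 passed the threshold in at least 1 comparison, as did 58.6% of all regions. In vehicle 6 of them were more open in Th17n than in iTreg cells, where 25.2% of all regions were, 44.6% passing in either direction. DFMO lowered 4 in Th17n cells and 2 in iTreg cells, where 4.29% and 4.73% of all regions were lower. In either direction 8.79% and 8.56% passed.

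**Figure D1:**
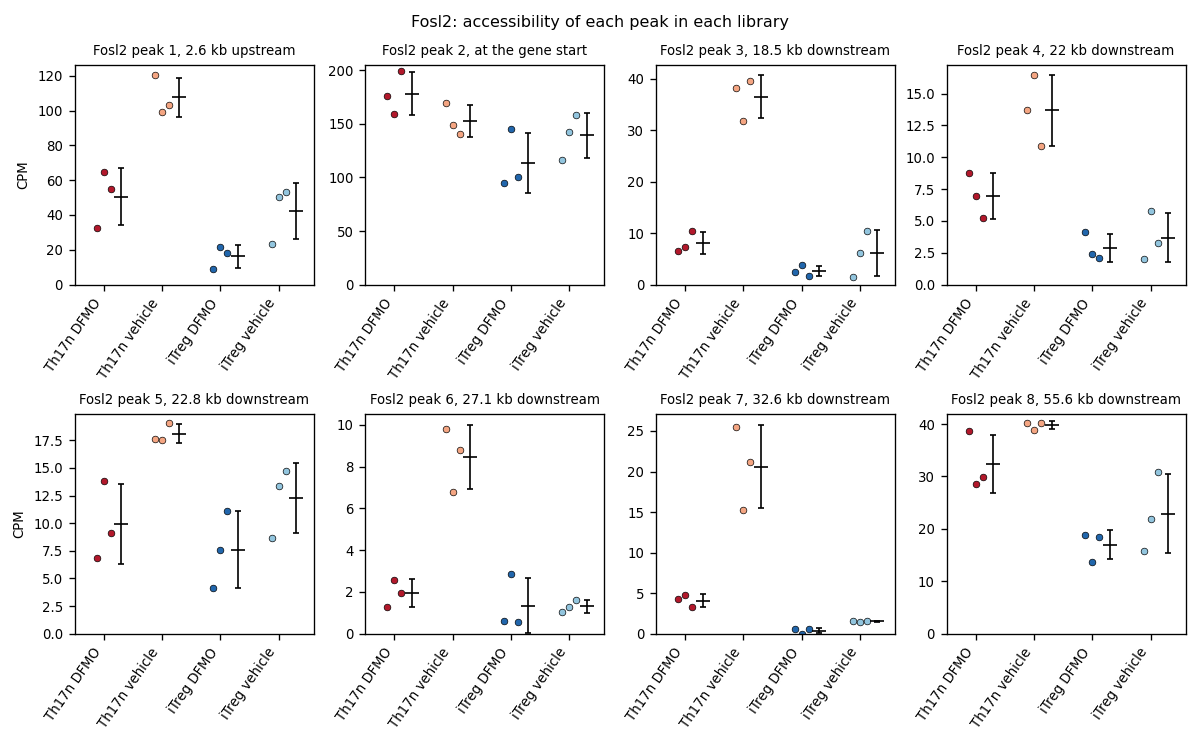
CPM of each of the 8 Fosl2 peaks in each of the 12 libraries (points), with mean and SD beside them, for Th17n with DFMO, Th17n with vehicle, iTreg with DFMO and iTreg with vehicle. At every peak but peak 2 the 3 Th17n libraries with DFMO lie below all 3 Th17n libraries with vehicle. The share of all regions separated in this way was not counted. Of these, peaks 1, 3, 6 and 7 were called for DFMO in Th17n cells. At peak 2, at the gene start, libraries with DFMO and with vehicle overlap within each lineage.

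Fosl2 peak 1 (chr5:32132971-32133880), 2.6 kb upstream of the start, had 32.5, 64.5 and 54.7 CPM in Th17n cells with DFMO, 120.5, 99.1 and 103 in Th17n cells with vehicle, 8.80, 21.8 and 18.2 in iTreg cells with DFMO and 23.5, 50.1 and 53.0 in iTreg cells with vehicle. DFMO and vehicle libraries did not overlap in either lineage, and neither did Th17n and iTreg libraries of the same treatment. The log2 change with DFMO was -1.07 ± 0.21 (SE, adjusted p = 0.000529) in Th17n and -1.37 ± 0.24 (SE, adjusted p = 0.000186) in iTreg cells, which is 2.10-fold and 2.58-fold lower. The change in Th17n cells had an adjusted p of 0.0578 with DESeq2.

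Fosl2 peak 3 (chr5:32154977-32155801), inside the gene, 18.5 kb downstream of the start, had 6.50, 7.36 and 10.4 CPM in Th17n cells with DFMO, 38.2, 31.9 and 39.6 in Th17n cells with vehicle, 2.35, 3.80 and 1.76 in iTreg cells with DFMO and 1.53, 6.23 and 10.5 in iTreg cells with vehicle. The Th17n libraries with vehicle stood above all 9 others, and the iTreg libraries of the 2 treatments overlapped. In Th17n cells it fell with DFMO by a log2 change of -2.18 ± 0.35 (SE, adjusted p = 3.53e-05), 4.54-fold, a call kept in every alternative run. In iTreg cells the change was -1.39 ± 0.46 (SE, adjusted p = 0.0494), close to the threshold, with an adjusted p of 0.0557 when animals were blocked and up to 0.44 with 1 library left out (iTreg vehicle of animal 3). Leaving out iTreg vehicle of animal 2, or iTreg DFMO of animal 1 or 3, also ended that call, with adjusted p of 0.091, 0.108 and 0.275.

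Fosl2 peak 7 (chr5:32169048-32169384), 32.6 kb downstream, had 4.22, 4.76 and 3.26 CPM in Th17n cells with DFMO, 25.5, 15.2 and 21.1 in Th17n cells with vehicle, 0.587, 0 and 0.586 in iTreg cells with DFMO and 1.53, 1.5 and 1.62 in iTreg cells with vehicle. The iTreg values rest on 1, 0 and 2 counts with DFMO and 3, 7 and 8 with vehicle, so the peak was nearly closed in that lineage at this depth. In Th17n cells DFMO lowered it, with no overlap, by a log2 change of -2.22 ± 0.41 (SE, adjusted p = 0.000332), and no alternative ended the call. Fosl2 peak 6 (chr5:32163536-32163865, 27.1 kb downstream) had 1.30, 2.60 and 1.95 CPM in Th17n cells with DFMO, 9.79, 6.77 and 8.81 in Th17n cells with vehicle, 0.587, 2.85 and 0.586 in iTreg cells with DFMO and 1.02, 1.29 and 1.62 in iTreg cells with vehicle. Its groups did not overlap in Th17n cells, where the change was -2.06 ± 0.59 (SE, adjusted p = 0.0204). That call rested on few counts: without Th17n DFMO of animal 1 or 3, or Th17n vehicle of animal 2 or 3, the adjusted p was 0.122, 0.0512, 0.0548 and 0.089.

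At the Fosl2 start no change with DFMO passed the test. Fosl2 peak 2 (chr5:32135053-32136474) had 176, 159.7 and 199 CPM in Th17n cells with DFMO, 169.5, 149 and 140.4 in Th17n cells with vehicle, 94.5, 145 and 101 in iTreg cells with DFMO and 117, 142 and 159 in iTreg cells with vehicle. DFMO and vehicle libraries overlapped in both lineages, and the log2 change was 0.26 ± 0.13 (SE, adjusted p = 0.226) in Th17n and -0.29 ± 0.13 (SE, adjusted p = 0.17) in iTreg cells. The 95% intervals of these changes were 0.00 to 0.51 and -0.55 to -0.03. In iTreg cells the library with DFMO of animal 2 was the highest of its group, and without it the change was -0.51 with an adjusted p of 0.0101. Between lineages with DFMO every Th17n library was above every iTreg library at this peak, a log2 difference of 0.58 ± 0.13 (SE, adjusted p = 0.000485) that held in every alternative run. The start peak held a larger share of Fosl2 counts with DFMO: 61.0% ± 4.84 in Th17n with DFMO, 38.4% ± 1.64 in Th17n with vehicle, 69.9% ± 4.0 in iTreg with DFMO and 61.6% ± 5.78 in iTreg with vehicle (SD, n = 3 each). These shares did not overlap between DFMO and vehicle in Th17n cells, and overlapped in iTreg cells. Fosl2 peaks 4 and 8, 22.0 kb and 55.6 kb downstream, were likewise called between lineages and not for DFMO. Peak 4 (chr5:32158494-32158913) had 8.77, 6.92 and 5.21 CPM in Th17n cells with DFMO, 13.7, 16.5 and 10.9 in Th17n cells with vehicle, 4.11, 2.37 and 2.05 in iTreg cells with DFMO and 2.05, 5.80 and 3.23 in iTreg cells with vehicle. Peak 8 (chr5:32192072-32192456) had 38.7, 28.6 and 29.9 CPM in Th17n cells with DFMO, 40.2, 38.9 and 40.2 in Th17n cells with vehicle, 18.8, 13.8 and 18.5 in iTreg cells with DFMO and 15.8, 21.9 and 30.9 in iTreg cells with vehicle. Both were higher in every Th17n library with DFMO than in every iTreg library with DFMO. The remaining peak, Fosl2 peak 5, ranged from 4.11 to 19.1 CPM and passed no test. At peaks 4, 5 and 8 every Th17n library with DFMO was also below every Th17n library with vehicle, a separation whose share over all regions was not counted. Their log2 changes there were -0.92, -0.86 and -0.25 (adjusted p = 0.136, 0.101 and 0.542).

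Fos, the immediate early gene that gave the family its name, had 1 peak that DFMO lowered. Fos peak 4 (chr12:85446883-85447513), 26.4 kb upstream of Fos, had 35.1, 38.5 and 18.9 CPM in Th17n cells with DFMO, 32.3, 35.6 and 37.0 in Th17n cells with vehicle, 15.3, 21.8 and 12.3 in iTreg cells with DFMO and 28.6, 35.2 and 31.3 in iTreg cells with vehicle. In iTreg cells all 3 libraries with DFMO lay below all 3 with vehicle, a log2 change of -0.97 ± 0.24 (SE, adjusted p = 0.00852). In Th17n cells the libraries overlapped and the change was -0.14 ± 0.23 (SE, adjusted p = 0.777). The iTreg call ended without iTreg DFMO of animal 3 (adjusted p = 0.116) and without iTreg vehicle of animal 2 (adjusted p = 0.0603). At the Fos start, peak 6 (chr12:85473491-85474744) had 60.4, 69.2 and 50.8 CPM in Th17n cells with DFMO, 50.9, 59.9 and 55.5 in Th17n cells with vehicle, 65.7, 50.3 and 69.2 in iTreg cells with DFMO and 75.7, 82.3 and 75.0 in iTreg cells with vehicle. The 3 iTreg libraries with vehicle were above all others, yet the change with DFMO in iTreg cells, -0.31 ± 0.15 (SE, adjusted p = 0.207), did not pass. Fos peak 10 (chr12:85519672-85519868), 45.8 kb downstream, had 10.4, 10.4 and 7.16 CPM in Th17n cells with DFMO, 9.79, 7.85 and 9.40 in Th17n cells with vehicle, 4.70, 1.42 and 2.35 in iTreg cells with DFMO and 0, 3.44 and 2.43 in iTreg cells with vehicle. Here Th17n and iTreg libraries did not overlap in either treatment, and treatments overlapped in both lineages. The other 8 Fos peaks, with 0 to 44.1 CPM, passed no test.

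Fosb, whose product is another partner of Jun proteins, had called peaks in both directions. Fosb peak 1 (chr7:19300585-19301666), 8.4 kb downstream and 4.4 kb from Rtn2, overlaps the long noncoding RNA Gm26802. It had 36.4, 28.6 and 24.1 CPM in Th17n cells with DFMO, 17.6, 15.1 and 19.1 in Th17n cells with vehicle, 22.9, 26.6 and 36.9 in iTreg cells with DFMO and 27.1, 29.0 and 29.1 in iTreg cells with vehicle. Th17n libraries with vehicle were below all 9 others, and DFMO raised the peak in Th17n cells by 0.85 ± 0.24 (SE, adjusted p = 0.0199) on the log2 scale. That call ended without Th17n DFMO of animal 1 or 2 (adjusted p = 0.228 and 0.0514) and when Th17n vehicle of animal 2 or 3 was left out (0.166 and 0.0615). Fosb peak 7 (chr7:19325740-19326681), 15.7 kb upstream, had 14.6, 18.2 and 19.5 CPM in Th17n cells with DFMO, 15.7, 18 and 12.6 in Th17n cells with vehicle, 17.6, 23.7 and 24.0 in iTreg cells with DFMO and 28.1, 43.6 and 45.3 in iTreg cells with vehicle. It was highest in the 3 iTreg libraries with vehicle, and fell with DFMO in iTreg cells by a log2 change of -0.83 ± 0.24 (SE, adjusted p = 0.0202), with an adjusted p of 0.0556 to 0.14 without iTreg DFMO of animal 1 or 3 or iTreg vehicle of animal 2 or 3. Fosb peak 4 (chr7:19316388-19316999), 6.3 kb upstream, had 18.8, 13.8 and 13.0 CPM in Th17n cells with DFMO, 23.5, 17.6 and 13.5 in Th17n cells with vehicle, 6.46, 4.27 and 2.64 in iTreg cells with DFMO and 3.58, 2.58 and 3.84 in iTreg cells with vehicle. Every Th17n library was above every iTreg library at it, and treatments overlapped within each lineage.
The peak at the Fosb start, peak 3 (chr7:19310041-19310559), had 23.1, 31.1 and 37.1 CPM in Th17n cells with DFMO, 15.7, 17.7 and 27.9 in Th17n cells with vehicle, 34.0, 27.0 and 27.2 in iTreg cells with DFMO and 28.6, 25.1 and 34.8 in iTreg cells with vehicle, and its groups overlapped. Fosb peak 2 (chr7:19307963-19308993), inside the gene, had 53.3, 54.1 and 43.0 CPM in Th17n cells with DFMO, 61.7, 48.2 and 53.7 in Th17n cells with vehicle, 45.2, 68.8 and 65.9 in iTreg cells with DFMO and 67.0, 55.2 and 68.5 in iTreg cells with vehicle and passed no test. Fosb peak 6 (chr7:19321487-19321801) had 32.2, 37.2 and 29.9 CPM in Th17n cells with DFMO, 19.6, 28.3 and 27.9 in Th17n cells with vehicle, 24.1, 20.4 and 19.3 in iTreg cells with DFMO and 18.4, 32.7 and 29.1 in iTreg cells with vehicle, and passed between the lineages with DFMO, where the groups did not overlap. Fosb peak 5 ranged from 20.9 to 33.8 CPM without a call.

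Fosl1 (FRA-1) had 2 peaks and no call in any comparison. Peak 1 lay over an end of its gene model, and peak 2 lay inside the model, 902 bases from an end. Fosl1 peak 1 (chr19:5447528-5448301) had 29.9, 35.5 and 21.5 CPM in Th17n cells with DFMO, 24.5, 21.9 and 21.4 in Th17n cells with vehicle, 28.2, 23.7 and 24.6 in iTreg cells with DFMO and 35.3, 28.4 and 23.2 in iTreg cells with vehicle. Its groups overlapped in all 4 comparisons, and the 95% interval of its log2 change with DFMO was -0.04 to 0.88 in Th17n cells, and -0.59 to 0.31 in iTreg cells. Fosl1 peak 2 had 2.35 to 9.80 CPM, too few counts for a narrow interval.

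Jun, the AP-1 subunit that Jun N-terminal kinase phosphorylates, had its largest peak at the start and 5 peaks upstream. Peaks 4 to 9 also overlap the long noncoding RNA Junos. Jun peak 4 (chr4:95050498-95053475) had 259, 278 and 289.8 CPM in Th17n cells with DFMO, 230.2, 247 and 257 in Th17n cells with vehicle, 314, 310.3 and 331 in iTreg cells with DFMO and 326, 279 and 243 in iTreg cells with vehicle. Th17n libraries with DFMO were all above those with vehicle, but the log2 change of 0.18 ± 0.10 (SE, adjusted p = 0.256) did not pass, and in iTreg cells the groups overlapped.

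**Figure D2:**
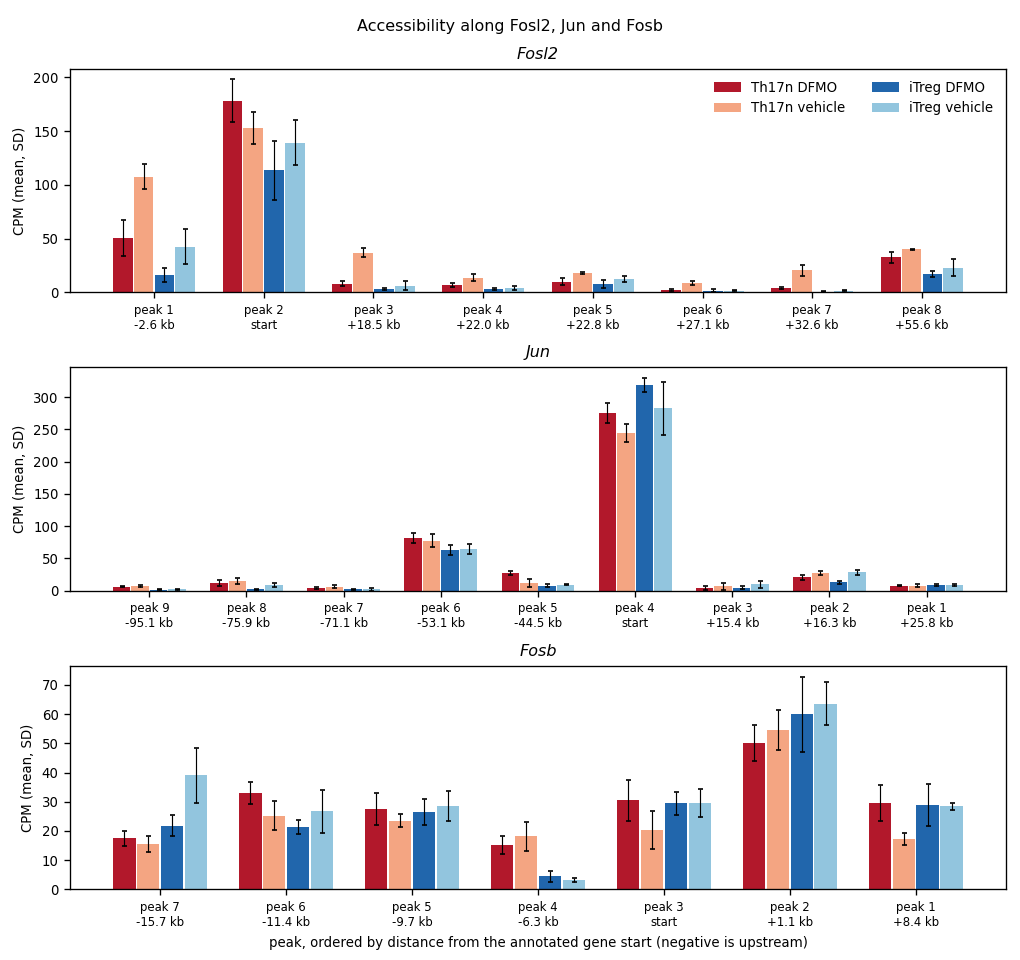
Mean CPM with SD (n = 3) of each peak of Fosl2, Jun and Fosb in Th17n with DFMO, Th17n with vehicle, iTreg with DFMO and iTreg with vehicle, ordered by distance from the annotated start in kb. Jun peak 4 at the start stands at 230.2 to 331 CPM in all 12 libraries, while Jun peaks 5 and 8 upstream differ between groups.

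The 3 Jun peaks called for DFMO all lay away from the start. Jun peak 5 (chr4:95096727-95097141), 44.5 kb upstream, had 29.9, 29.0 and 24.7 CPM in Th17n cells with DFMO, 4.90, 12.9 and 17.6 in Th17n cells with vehicle, 7.04, 7.12 and 10.3 in iTreg cells with DFMO and 10.2, 10.8 and 8.09 in iTreg cells with vehicle. The 3 Th17n libraries with DFMO stood above all 9 others, and the log2 change with DFMO in Th17n cells was 1.12 ± 0.30 (SE, adjusted p = 0.0119). Leaving out Th17n DFMO of animal 1 or 2, or Th17n vehicle of animal 1 or 2, gave adjusted p of 0.0855, 0.0531, 0.0747 and 0.0739. Jun peak 8 (chr4:95128087-95128536), 75.9 kb upstream, had 13.3, 16.9 and 7.16 CPM in Th17n cells with DFMO, 13.7, 19.9 and 11.2 in Th17n cells with vehicle, 1.17, 2.85 and 2.35 in iTreg cells with DFMO and 7.67, 5.80 and 11.9 in iTreg cells with vehicle. The iTreg libraries with DFMO, at 2, 6 and 8 counts, were below all others, a log2 change of -1.93 ± 0.47 (SE, adjusted p = 0.00579), with an adjusted p of 0.0887 without iTreg vehicle of animal 3. Jun peak 2 (chr4:95035308-95035907), 16.3 kb downstream, had 25.7, 18.6 and 18.2 CPM in Th17n cells with DFMO, 30.4, 26.9 and 24.1 in Th17n cells with vehicle, 11.2, 15.7 and 12.3 in iTreg cells with DFMO and 23.5, 29.7 and 31.9 in iTreg cells with vehicle. It was likewise lowest in iTreg cells with DFMO, with no overlap, and fell there by a log2 change of -1.12 ± 0.26 (SE, adjusted p = 0.0033). Jun peaks 7 and 9 (chr4:95123313-95123507 and chr4:95147345-95147739), 71.1 kb and 95.1 kb upstream, were low in every group. Peak 7 had 5.20, 6.49 and 3.26 CPM in Th17n cells with DFMO, 3.92, 6.16 and 9.69 in Th17n cells with vehicle, 2.94, 1.90 and 2.35 in iTreg cells with DFMO and 0, 3.22 and 3.44 in iTreg cells with vehicle. Peak 9 had 7.47, 5.62 and 6.51 CPM in Th17n cells with DFMO, 8.81, 6.77 and 6.46 in Th17n cells with vehicle, 2.35, 1.90 and 0.586 in iTreg cells with DFMO and 2.05, 1.94 and 2.83 in iTreg cells with vehicle. Th17n libraries were above iTreg libraries at both peaks in both treatments, and DFMO and vehicle libraries overlapped. The other 3 Jun peaks, at 1.30 to 87.9 CPM, passed no test.

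Junb, which pairs with BATF in Th17 cells, had no call for DFMO. Junb peak 2 at the start (chr8:84977365-84978962) had 139, 126 and 132 CPM in Th17n cells with DFMO, 136, 134 and 124 in Th17n cells with vehicle, 115, 130.0 and 118 in iTreg cells with DFMO and 132, 136 and 154 in iTreg cells with vehicle. The 95% interval of its log2 change with DFMO was -0.18 to 0.27 in Th17n and -0.42 to 0.02 in iTreg cells. Junb peak 1 (chr8:84976006-84977031), at the other end of the gene, had 109.5, 87.4 and 114 CPM in Th17n cells with DFMO, 77.4, 99.8 and 87.5 in Th17n cells with vehicle, 98.6, 114 and 79.4 in iTreg cells with DFMO and 95.1, 107 and 118 in iTreg cells with vehicle, with overlapping groups, and Junb peak 3 ranged from 74.5 to 120.5 CPM. Jund had a wide peak just past its start and a smaller one upstream. Jund peak 2 (chr8:70698359-70700086) had 164, 165 and 178 CPM in Th17n cells with DFMO, 161, 191 and 199.7 in Th17n cells with vehicle, 190.2, 239 and 186 in iTreg cells with DFMO and 210.2, 241 and 239 in iTreg cells with vehicle. Jund peak 1 (chr8:70695377-70695778), 2.0 kb upstream, had 14.3, 10.8 and 15.0 CPM in Th17n cells with DFMO, 15.7, 20.0 and 17.9 in Th17n cells with vehicle, 16.4, 30.8 and 17.3 in iTreg cells with DFMO and 36.3, 29.0 and 40.8 in iTreg cells with vehicle. At both peaks every Th17n library was below every iTreg library of the same treatment, and neither peak passed for DFMO. Without iTreg DFMO of animal 2, Jund peak 1 passed in iTreg cells, with a log2 change of -1.04 (adjusted p = 0.00848) in place of -0.70 ± 0.25 (SE, adjusted p = 0.066).

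The comparison of DFMO with vehicle asked which AP-1 gene regions moved when polyamine synthesis was inhibited. In Th17n cells 2 of 41 member peaks were higher with DFMO (Jun peak 5 and Fosb peak 1), where 4.5% of all regions were, and 4 were lower, where 4.29% were. All 4 lower peaks were Fosl2 peaks (1, 3, 6 and 7). In all, 8.79% of regions passed in this comparison. The median log2 change was -0.12 over the members and 0.01 over all regions. In iTreg cells 6 of 41 were lower with DFMO and 0 were higher, where 4.73% and 3.83% of all regions were, 8.56% in all. The 6 were Fosl2 peaks 1 and 3, Fos peak 4, Fosb peak 7 and Jun peaks 2 and 8. DESeq2 gave 5 members lower and 0 higher, where it called 1529 of all regions lower and 1572 higher. At an unadjusted p under 0.05, 11 members were lower and 1 was higher. The share of all regions at that unadjusted threshold was not counted. Of the 41 log2 changes in iTreg cells 35 were below 0, with a median of -0.26, against -0.01 over all regions.

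**Figure D3:**
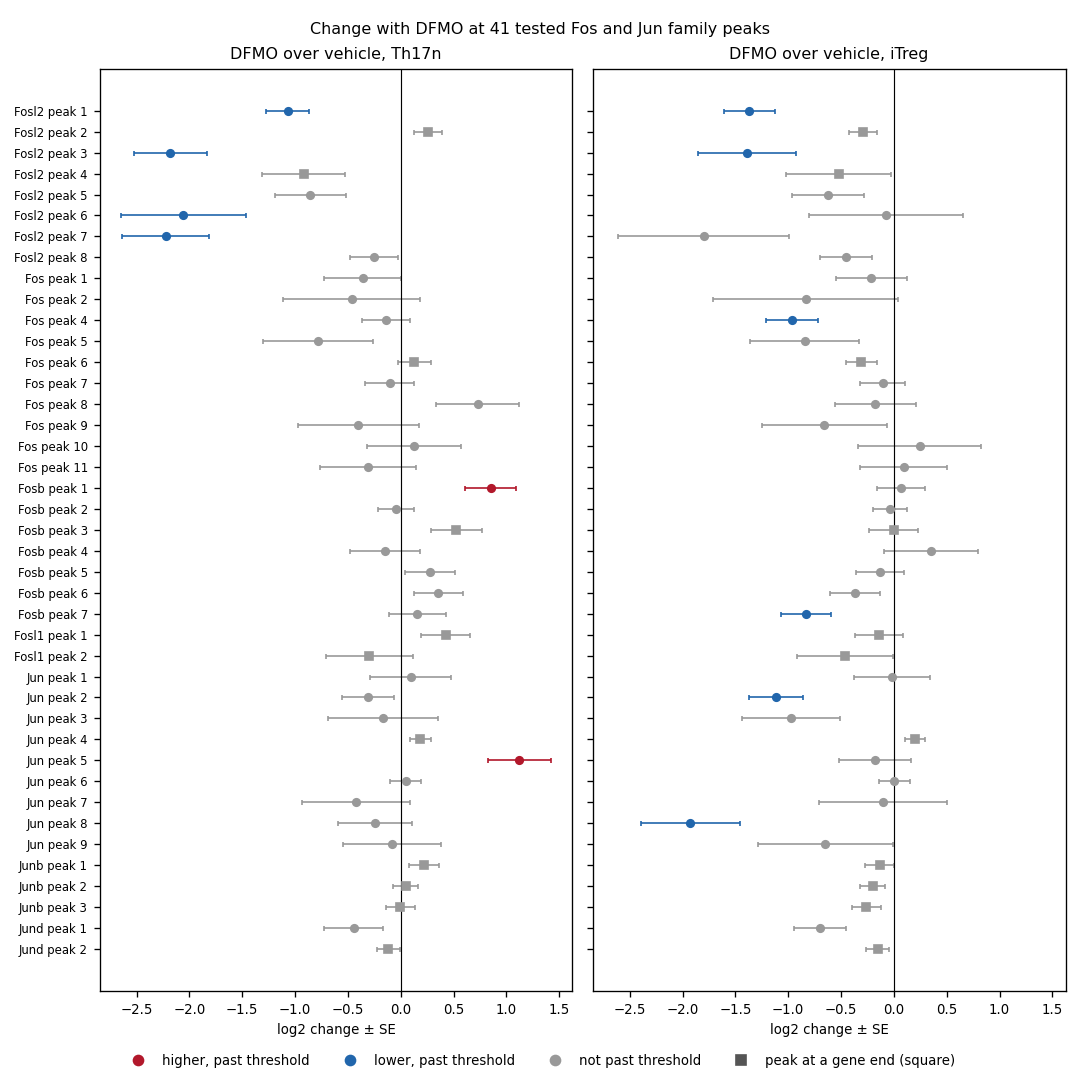
Log2 change with DFMO ± SE at the 41 tested member peaks, in Th17n cells on the left and iTreg cells on the right, with edgeR calls at adjusted p under 0.05 in colour and peaks at gene ends as squares. The 4 lower calls in Th17n cells are Fosl2 peaks, and all squares are grey in both panels.

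Peaks lower with DFMO in both lineages numbered 2, Fosl2 peaks 1 and 3. The iTreg call of peak 3 was weak. It also ended with RLE factors (adjusted p = 0.0531), DESeq2 (0.0803), no filter (0.0518) and only the 2 groups compared (0.159). None of the 11 peaks at gene ends passed for DFMO with edgeR or DESeq2 in either lineage. At an unadjusted p under 0.05 there were 1 higher and 1 lower in Th17n, and 1 higher and 2 lower in iTreg cells. The share of all gene-end regions at that unadjusted threshold was not counted. Among gene-end peaks of all genes, 4.44% were called higher and 2.06% lower in Th17n cells at an adjusted p under 0.05. In iTreg cells 3.67% were higher and 3.63% lower, so that 0 of 11 is near the background in both lineages. Of the 30 members elsewhere, 2 were higher and 4 lower in Th17n, and 0 higher and 6 lower in iTreg cells. The share of all such regions that was lower was 5.1% in Th17n and 5.22% in iTreg cells, and the share higher was 4.35% and 3.72%. With every library thinned to the smallest total, the calls of Fosb peak 1 in Th17n cells (adjusted p = 0.127) and of Fos peak 4, Fosb peak 7, Jun peak 2 and Fosl2 peak 3 in iTreg cells (0.0903, 0.0826, 0.0698 and 0.245) ended. Fosl2 peak 6 then had too few counts to be tested, so its Th17n call had no value in that setting.

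Whether DFMO acted unequally on the lineages was tested as an interaction, the change in Th17n minus that in iTreg cells. None of the 41 members passed with edgeR, and none with DESeq2, where edgeR called 1.31% of all regions. At an unadjusted p under 0.05, 9 members had a positive and 1 a negative interaction. The share of all regions at that unadjusted threshold was not counted, so this split has no background beside it. Fosl2 peak 2 had an interaction of 0.55 ± 0.18 (SE, adjusted p = 0.127), with an adjusted p of 0.00807 without iTreg DFMO of animal 2 and 0.0464 without iTreg vehicle of animal 1. Jun peak 5 had 1.30 ± 0.45 (SE, adjusted p = 0.14) and Jun peak 8 1.68 ± 0.59 (SE, adjusted p = 0.144). So the calls made in 1 lineage, such as Jun peak 5 in Th17n cells and Jun peaks 2 and 8 in iTreg cells, were not shown to be particular to it.

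The comparison of Th17n with iTreg cells asked how lineage shaped the same regions. In vehicle 10 of 41 members were higher in Th17n cells, where 25.2% of all regions were, and 8 were lower, where 19.3% were, 44.6% in all. The 10 were Fosl2 peaks 1, 3, 4, 6, 7 and 8, Fos peak 10, Fosb peak 4 and Jun peaks 7 and 9. The 8 were Fos peak 6, Fosb peaks 1, 3 and 7, Jun peak 4, Junb peak 1 and Jund peaks 1 and 2. With DFMO 13 members were higher and 3 lower, where 22.6% and 14.7% of all regions were, 37.2% in all. The 13 were Fosl2 peaks 1, 2, 3, 4, 7 and 8, Fos peaks 4 and 10, Fosb peaks 4 and 6, and Jun peaks 5, 8 and 9, and the 3 were Jun peak 4 and Jund peaks 1 and 2. Scaling moved these splits. With library totals the calls were 11 higher and 5 lower in vehicle, and 14 higher and 1 lower with DFMO.

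**Figure D4:**
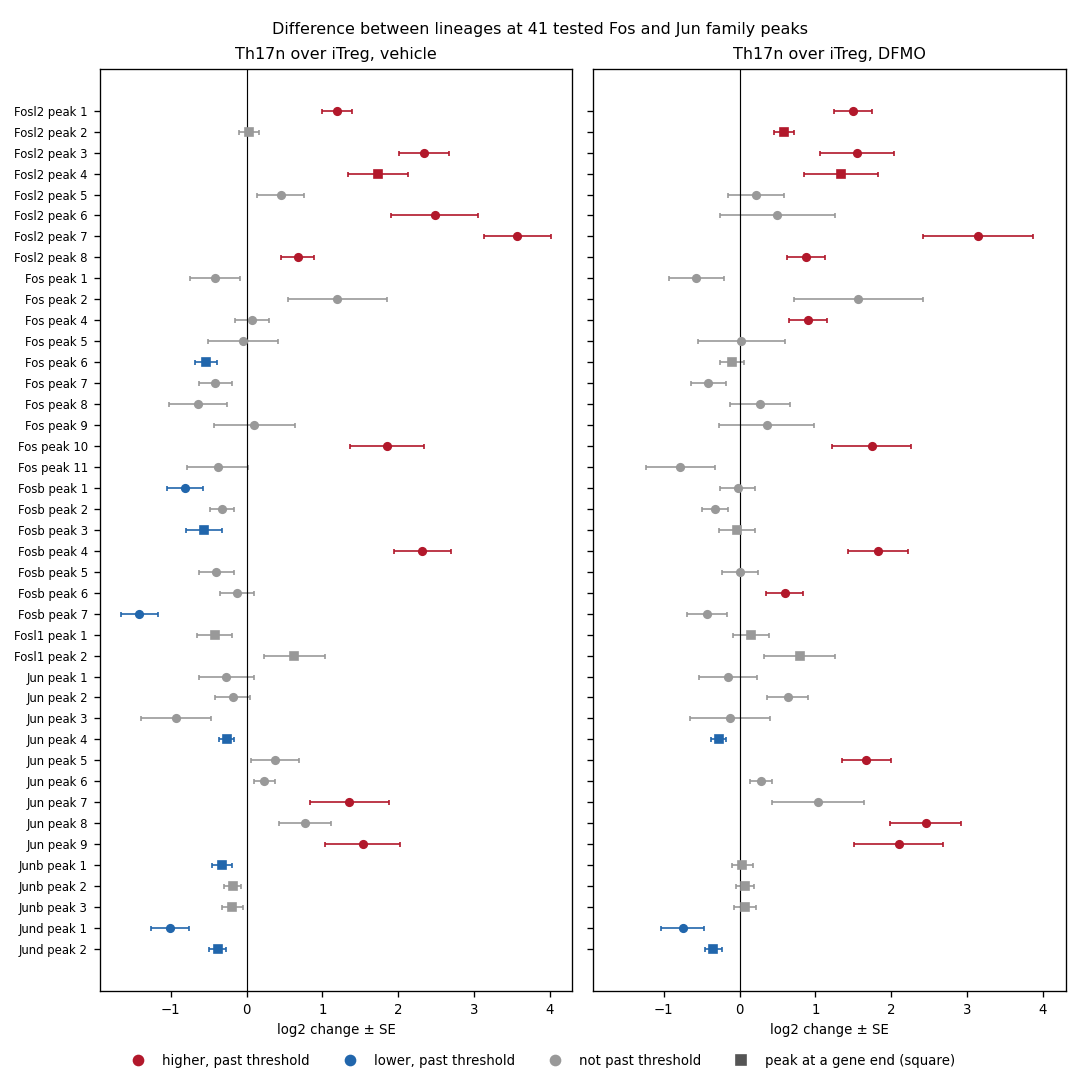
Log2 difference ± SE of Th17n over iTreg cells at the 41 tested member peaks, in vehicle on the left and DFMO on the right, with edgeR calls in colour and gene-end peaks as squares. Fosl2 peaks 1, 3, 4, 7 and 8 lie right of 0 in both panels, and Jun peak 4 and both Jund peaks lie left of 0.

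In vehicle the 3 largest differences among the calls were at Fosl2. There the log2 difference was 3.57 ± 0.44 (SE, adjusted p = 6.04e-09) at Fosl2 peak 7, 2.48 ± 0.57 (SE, adjusted p = 0.000378) at peak 6, 2.34 ± 0.33 (SE, adjusted p = 1.08e-07) at peak 3, 1.73 ± 0.40 (SE, adjusted p = 0.000342) at peak 4 and 1.20 ± 0.20 (SE, adjusted p = 3.10e-06) at peak 1. With DFMO peak 6 had 0.49 ± 0.76 (SE, adjusted p = 0.643) and overlapping groups, and peaks 7, 3 and 1 had 3.15 ± 0.73, 1.55 ± 0.48 and 1.49 ± 0.25. Outside Fosl2, Fosb peak 4 differed by 2.32 ± 0.37 (SE, adjusted p = 1.52e-06) in vehicle and 1.82 ± 0.39 (SE, adjusted p = 0.000257) with DFMO. Jun peak 8 differed by 0.77 ± 0.35 (SE, adjusted p = 0.0653) in vehicle and 2.45 ± 0.46 (SE, adjusted p = 3.79e-05) with DFMO, and Jun peak 5 by 0.37 ± 0.31 (SE, adjusted p = 0.344) and 1.67 ± 0.32 (SE, adjusted p = 5.10e-05). Both lineage comparisons share libraries with the DFMO comparisons, so their values are not independent of them.
Among the lower calls, Fosb peak 7 had -1.41 ± 0.24 (SE, adjusted p = 4.86e-06) in vehicle, Jund peak 1 -1.01 ± 0.25 (SE, adjusted p = 0.000804) and Jund peak 2 -0.38 ± 0.11 (SE, adjusted p = 0.0034). At Fos peak 6, Fosb peak 3, Jun peak 4 and Junb peak 1 the difference was smaller, from -0.56 ± 0.23 to -0.26 ± 0.10. Those of Fosb peak 3, Jun peak 4 and Junb peak 1 lost their calls with either other scaling and with DESeq2. Members at gene ends gave 1 higher and 5 lower calls in vehicle. The share of all counts that fell at gene ends was 45.5% to 48.9% in Th17n and 53.8% to 57.0% in iTreg libraries, and 32.5% of all gene-end regions were lower in Th17n with vehicle. The part of this shared shift in the lower calls was not tested. In vehicle, 7 calls between lineages were lost on leaving out 1 library: that of Fosb peak 1 without Th17n vehicle of animal 2 (adjusted p = 0.0638) and that of Fosb peak 3 without Th17n vehicle of animal 1 or 2 or iTreg vehicle of animal 3 (adjusted p = 0.166 to 0.304). Also lost were that of Fosl2 peak 8 without iTreg vehicle of animal 1 or 2 (adjusted p = 0.0518 to 0.0738) and that of Jun peak 4 without Th17n vehicle of animal 1, 2 or 3 or iTreg vehicle of animal 1 or 2 (adjusted p = 0.0578 to 0.215). Also lost were that of Jun peak 7 without Th17n vehicle of animal 2 or 3 or iTreg vehicle of animal 1 (adjusted p = 0.0505 to 0.186) and that of Junb peak 1 without Th17n vehicle of animal 1 or 3 or iTreg vehicle of animal 2 or 3 (adjusted p = 0.101 to 0.272). Also lost was that of Jund peak 2 without Th17n vehicle of animal 1 (adjusted p = 0.0766). With DFMO, 9 calls between lineages were lost on leaving out 1 library: that of Fos peak 4 without iTreg DFMO of animal 3 (adjusted p = 0.0685) and that of Fosb peak 6 without Th17n DFMO of animal 1, 2 or 3 or iTreg DFMO of animal 1, 2 or 3 (adjusted p = 0.0644 to 0.177). Also lost were that of Fosl2 peak 3 without iTreg DFMO of animal 3 (adjusted p = 0.0894) and that of Fosl2 peak 4 without Th17n DFMO of animal 1 or 2 or iTreg DFMO of animal 2 or 3 (adjusted p = 0.0527 to 0.138). Also lost were that of Fosl2 peak 8 without Th17n DFMO of animal 1 (adjusted p = 0.0556) and that of Jun peak 4 without Th17n DFMO of animal 1 or 2 or iTreg DFMO of animal 3 (adjusted p = 0.0602 to 0.108). Also lost were that of Jun peak 9 without iTreg DFMO of animal 3 (adjusted p = 0.0626) and that of Jund peak 1 without Th17n DFMO of animal 2 or iTreg DFMO of animal 2 (adjusted p = 0.126 to 0.295). Also lost was that of Jund peak 2 without iTreg DFMO of animal 2 (adjusted p = 0.135).

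Counts summed over all peaks of a gene gave 1 level per gene and library, tested in the same way over 14174 genes. Fosl2 had 275, 288 and 314 CPM in Th17n with DFMO, 435, 375 and 384 in Th17n with vehicle, 134, 197 and 154 in iTreg with DFMO and 171, 243 and 274 in iTreg with vehicle. Treatments did not overlap in Th17n cells, and lineages did not overlap in either treatment.

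**Figure D5:**
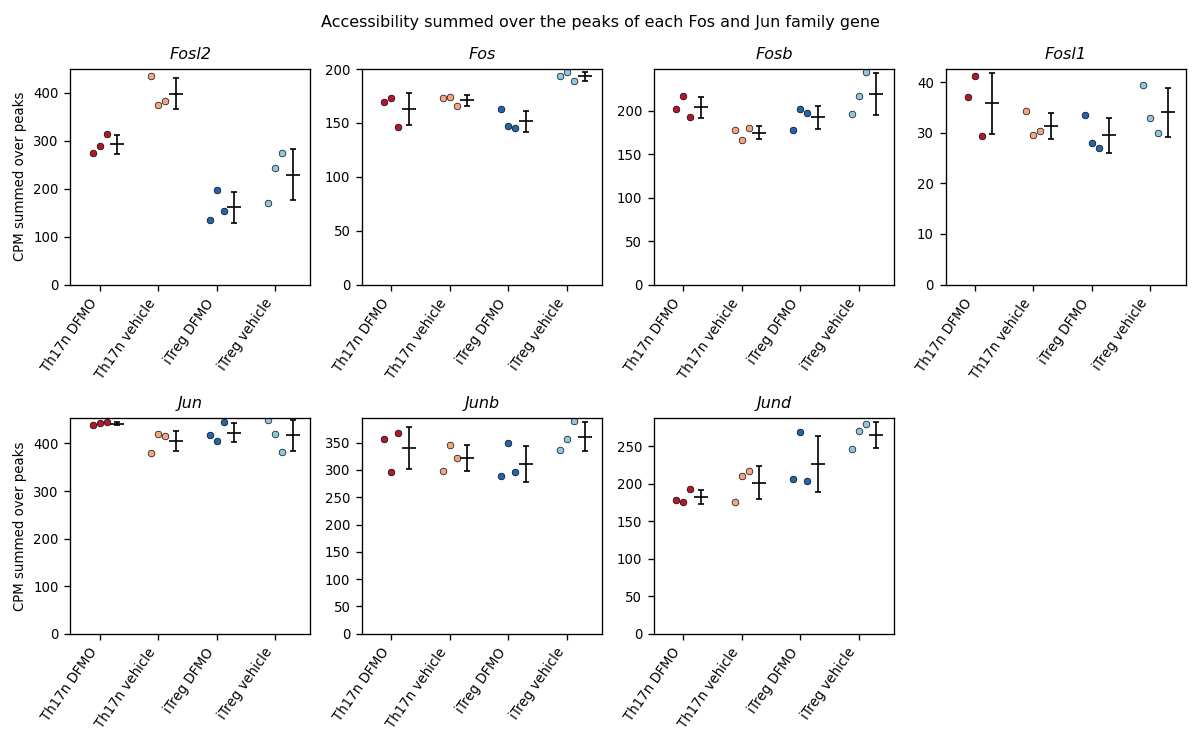
CPM summed over the peaks of each member gene in each of the 12 libraries (points), with mean and SD beside them. For Fosl2 the 3 Th17n libraries with vehicle lie above all others, and for Jun, Junb and Fosl1 the groups lie close together.

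The Fosl2 sum fell with DFMO by a log2 change of -0.48 ± 0.11 (SE, adjusted p = 0.00255) in Th17n cells, where 11% of genes passed, and -0.53 ± 0.12 (SE, adjusted p = 0.00146) in iTreg cells, where 12.5% did. With DESeq2 the adjusted p was 0.0963 and 0.0708, and without iTreg vehicle of animal 3 the iTreg value was 0.0581. It was higher in Th17n than in iTreg cells by 0.83 ± 0.11 (SE, adjusted p = 1.50e-08) in vehicle and 0.88 ± 0.12 (SE, adjusted p = 2.86e-08) with DFMO, where 32.9% and 26.9% of genes passed, and these 2 calls held in every alternative run. The Fos sum averaged 152 ± 9.59 CPM in iTreg with DFMO and 193 ± 4.28 in iTreg with vehicle (SD, n = 3 each), a log2 change of -0.36 ± 0.10 (SE, adjusted p = 0.0122). Without iTreg DFMO of animal 3 or iTreg vehicle of animal 2, the adjusted p for Fos was 0.0876 and 0.0598, and with only peaks within 25 kb, which leaves out Fos peak 4, it was 0.0778. The Jund sum was lower in Th17n than in iTreg cells, by -0.31 ± 0.10 (SE, adjusted p = 0.0163) in vehicle and -0.28 ± 0.11 (SE, adjusted p = 0.0458) with DFMO. The call in vehicle ended without Th17n vehicle of animal 1, iTreg vehicle of animal 2 or iTreg vehicle of animal 3 (adjusted p = 0.0961, 0.0581 and 0.0583). The call with DFMO ended without any 1 of the 3 Th17n libraries or iTreg DFMO of animal 2, with an adjusted p up to 0.41. It also ended with DESeq2 (adjusted p = 0.0574), thinning (0.18), only the 2 groups compared (0.069) and only peaks within 25 kb (0.0631). The Fosb sum was lower in Th17n with vehicle by -0.27 ± 0.10 (SE, adjusted p = 0.03), with an adjusted p of 0.0508 to 0.184 without Th17n vehicle of animal 2 or 3 or iTreg vehicle of animal 2 or 3. After thinning the adjusted p for Fosb was 0.164. Jun, Junb and Fosl1 gave no call, with 95% intervals for DFMO in Th17n cells of -0.10 to 0.25, -0.17 to 0.21 and -0.19 to 0.58. In iTreg cells the intervals were -0.15 to 0.19, -0.42 to -0.04 and -0.59 to 0.17. Without iTreg DFMO of animal 2 the Junb sum passed there, at -0.33 (adjusted p = 0.0212), as did the Jund sum, at -0.40 (adjusted p = 0.00699). No interaction passed for any of the 7 sums, where 1.99% of genes did, and the unadjusted p of Fosb was 0.00898.

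By root mean square difference of centred log2 CPM over the 12 libraries, the sums most like Fosl2 among 14174 genes were those of Egln3, Prss56 and Otogl, at 0.137, 0.143 and 0.153. Fosl2 itself varied by 0.55 around its mean, and the median gene lay 0.63 from it. The closest to Fos were Tbc1d10a, Ywhaq and Itpkb, at 0.073 to 0.078, and those closest to Fosb were Tmem19, Hspa1b and Map3k11, at 0.089 to 0.091. For Jund they were Jade2, Bcl2l1 and Grap, at 0.091 to 0.1. Fos, Fosb and Jund varied little themselves (0.151, 0.136 and 0.228), so many genes lay near them.

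The genes that act above, beside and below AP-1 were counted in the same fit. Of 152 peaks near 24 kinases and upstream factors, 8 were higher (5.26%) and 6 lower (3.95%) with DFMO in Th17n, and 8 higher (5.26%) and 7 lower (4.61%) in iTreg cells. Over all regions the shares were 4.5% and 4.29% in Th17n and 3.83% and 4.73% in iTreg cells. Elk3, a serum response factor partner, had 1 peak higher and 2 lower of 11 in Th17n, and 0 higher and 2 lower in iTreg cells. The Elk3 peak with the smallest adjusted p had 48.7 ± 6.29 CPM in Th17n cells with DFMO and 25.7 ± 7.81 in Th17n cells with vehicle, with a log2 change of 0.90 ± 0.19 (SE, adjusted p = 0.00184), and in iTreg cells another had 12.2 ± 5.20 CPM in iTreg cells with DFMO and 33.0 ± 2.96 in iTreg cells with vehicle, with a log2 change of -1.39 ± 0.27 (SE, adjusted p = 0.000531). At Sos1, an exchange factor that activates Ras, a peak had 7.76 ± 2.20 CPM in iTreg cells with DFMO and 17.6 ± 1.57 in iTreg cells with vehicle, with a log2 change of -1.14 ± 0.28 (SE, adjusted p = 0.00693). Of 68 peaks near 13 of 14 other bZIP genes, 1 was higher (1.47%) and 7 lower (10.3%) in Th17n, and 1 higher (1.47%) and 5 lower (7.35%) in iTreg cells. There, Nfe2l2, the oxidative stress factor, had 1 higher and 1 lower peak of 9 in Th17n cells, and the lower one had 33.1 ± 5.19 CPM in Th17n cells with DFMO and 65.8 ± 4.06 in Th17n cells with vehicle, with a log2 change of -0.97 ± 0.19 (SE, adjusted p = 0.000752). Atf3, a Jun partner, had 2 of 5 peaks lower in iTreg cells, 1 of them with 38.0 ± 6.13 CPM in iTreg cells with DFMO and 68.4 ± 6.61 in iTreg cells with vehicle, with a log2 change of -0.84 ± 0.16 (SE, adjusted p = 0.000562). The median log2 change of this list was -0.12 in Th17n and -0.24 in iTreg cells, against 0.01 and -0.01 over all regions.
Near 17 feedback and immediate early genes, 5 of 96 peaks were higher (5.21%) and 4 lower (4.17%) in Th17n, and 1 higher (1.04%) and 7 lower (7.29%) in iTreg cells. Of 4 peaks of Dusp2, a phosphatase of MAP kinases, 1 was lower in both lineages, with 50.0 ± 4.52 CPM in Th17n cells with DFMO and 98.0 ± 2.62 in Th17n cells with vehicle, with a log2 change of -0.95 ± 0.17 (SE, adjusted p = 0.000305), and 23.9 ± 4.82 CPM in iTreg cells with DFMO and 51.2 ± 17.2 in iTreg cells with vehicle, with a log2 change of -1.15 ± 0.20 (SE, adjusted p = 9.85e-05). Near 17 of 18 genes known to respond to AP-1 in T cells, 6 of 108 peaks were higher (5.56%) and 10 lower (9.26%) in Th17n, and 1 higher (0.926%) and 12 lower (11.1%) in iTreg cells. Tnfrsf9, the costimulatory receptor 4-1BB, had 4 of 7 peaks lower in Th17n and 2 in iTreg cells, 1 of them with 21.0 ± 9.22 CPM in Th17n cells with DFMO and 47.3 ± 6.89 in Th17n cells with vehicle, with a log2 change of -1.11 ± 0.24 (SE, adjusted p = 0.00154), and 15.5 ± 4.39 CPM in iTreg cells with DFMO and 49.5 ± 10.7 in iTreg cells with vehicle, with a log2 change of -1.66 ± 0.24 (SE, adjusted p = 1.13e-05). Il2ra had peaks in both directions, 3 higher and 3 lower in Th17n and 1 higher and 3 lower in iTreg cells. Between lineages in vehicle, the shares higher in Th17n cells were 30.3%, 33.8%, 24% and 17.6% for the 4 lists in the order given, beside 25.2% of all regions. The shares lower were 18.4%, 13.2%, 31.2% and 30.6%, beside 19.3%.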

How the data were processed

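ATAC-seq libraries of in vitro Th17n and iTreg cells were used, 12 in all, grouped by the labels' cell type and treatment. The authors deposited raw counts (whole numbers, unscaled) of each peak in each library, on build mm10. Per the submitters' processing notes, the tools were Trimmomatic, FastQC, Bowtie2 and MACS2. Their settings, and whether libraries were pooled for peak calling, were not given in the sources used here. It is not stated whether starts count from 0 or 1, and they are printed as deposited.

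A peak took the protein-coding gene model nearest to it (RefSeq, GRCm38.p6) within 100 kb, which placed 46093 of 48443 peaks at 14545 genes. All 12 libraries entered 1 model of 4 group means in edgeR 4.0.16 (R 4.3.3): filterByExpr with a minimum count of 10, TMM, trended dispersion, glmQLFit and glmQLFTest, with Benjamini-Hochberg adjustment and a threshold of 0.05. SE is the log2 change over the root of F, and 95% intervals are ± 1.96 SE. The scripts were tested on simulated data. Counts summed per gene were tested likewise. CPM divides by the library total. Totals differed by a ratio of 6.36, so shallow libraries give less certain values. Any pair of libraries within a group differed by a chi-square of at least 2.03 per degree of freedom, more than counting error gives. Each group had 3 animals.

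The labels' animal field holds the same 3 entries in every group, which pairs the libraries by label. Residuals of the 18 same-animal pairs correlated between -0.055 and 0.075, and those of pairs of different animals between -0.118 and 0.095. For 7 of 12 libraries the highest correlation with a library of another group was with one of the same animal. The test without an animal block is reported, and the blocked one is an alternative, as are RLE scaling, library totals, DESeq2 1.42.0, no filter, thinning, only the groups compared, a distance of 25 kb and each library left out. Every peak called in at least 1 contrast, and the peak nearest each gene, is given in full. From each list up to 4 genes per contrast could be named, those with the smallest adjusted p. The members and lists were chosen with earlier results of these data known.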

Additional observations from a re-analysis of the deposited data

How the results depend on the processing

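Of 46 peak calls, 16 held in every other setting and with each library left out. Another 3 held wherever they could be tested: Fosl2 peak 6 and Jun peak 9 between lineages in vehicle had too few counts after thinning, and Fosl2 peak 7 between lineages with DFMO gave no value in the fit of only the 2 groups compared. At least 1 other setting ended 17 of them, and at least 1 left-out library ended 23, while 0 changed direction. Of 8 calls on summed counts, 2 held throughout, 5 were lost in another setting and 5 with a library left out. Of 116 results not called, 40 changed sign in some alternative, with adjusted p there of at least 0.389, and 9 passed in at least 1. The blocked fit by animal gave 5 lower members in iTreg cells, because it ended the call of Fosl2 peak 3 there (adjusted p = 0.0557), and changed no other call.

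With every library thinned to the smallest, 1 member was higher with DFMO in Th17n cells, 2 were lower in iTreg cells, 6 were higher and 3 lower between lineages in vehicle, and 1 was lower between lineages with DFMO. Thinning leaves fewer counts in each deeper library. It left Fosl2 peak 6 and Jun peaks 7 and 9 untested, and without Fosl2 peak 6 the members lower with DFMO in Th17n cells were 3 in place of 4. Within 25 kb, a distance that keeps 30 peaks, 1 member was higher with DFMO in Th17n cells, 6 were higher in Th17n than in iTreg cells in vehicle, and 7 with DFMO. With RLE factors, library totals and DESeq2, 5 members were lower between lineages in vehicle, and with library totals 1 was lower with DFMO, and the cause was not tested. No scaling moved the median of all regions by 0.1 on the log2 scale.

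With each library left out in turn, 0 to 2 members were higher and 3 to 5 lower with DFMO in Th17n cells, and 0 to 0 were higher and 3 to 8 lower in iTreg cells. Between lineages 8 to 11 were higher and 5 to 8 lower in vehicle, and 8 to 12 higher and 1 to 4 lower with DFMO. For the interaction the counts were 0 to 1 and 0 to 0. Counts moved by over 1.5 times as follows. The 2 higher members in Th17n cells became 0 without Th17n DFMO of animal 1 or 2 or Th17n vehicle of animal 2, and 1 without Th17n vehicle of animal 1 or 3. The 6 lower members in iTreg cells became 3 without iTreg DFMO of animal 3 or iTreg vehicle of animal 2 or 3. Between lineages in vehicle, the lower members became 5 without Th17n vehicle of animal 2. With DFMO the higher members became 8 without iTreg DFMO of animal 3, and the lower became 1 without Th17n DFMO of animal 2 or iTreg DFMO of animal 2.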
